A study of Caenorhabditis elegans with 45 samples.

Results

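The 8 SR splicing factor genes of the nematode Caenorhabditis elegans carry the symbols rsp-1 to rsp-8. They were chosen by symbol alone, and the choice used no measured value, although earlier results of these data were known. All 8 were among the 46926 genes of the deposited table and among the 16053 genes with enough counts to be tested. They lie on chromosome II (rsp-1, rsp-2, rsp-4, rsp-5 and rsp-7), chromosome III (rsp-3 and rsp-8) and chromosome IV (rsp-6).

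SR proteins bind exonic sequences of pre-mRNA through RNA recognition motifs and recruit the splicing machinery through a domain rich in arginine and serine. Many SR genes of animals carry a so-called poison exon, whose inclusion brings in an early stop codon, and the SR protein itself can promote that inclusion. mRNAs with such a stop are degraded by nonsense-mediated decay (NMD), in which the kinase SMG-1 phosphorylates the RNA helicase SMG-2, so loss of either factor lets them accumulate. The question put to each gene was whether its RNA was higher in worms without NMD.

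Polyadenylated RNA of whole young adults was sequenced in 45 libraries, 5 biological replicates (lettered A to E) of each of 9 genotypes. The labels do not say whether the replicates came from separate cultures, so p-values measure the spread between these samples. The 6 strains without NMD carried the allele n6597 of smg-1 or r863 of smg-2, each alone (smg-1 and smg-2), with sa307 of egl-9 (smg-1 egl-9 and smg-2 egl-9), or with sa307 and ia4 of hif-1 together (named smg-1 egl-9 hif-1 and, for the smg-2 allele, smg-2 egl-9 hif-1). The 3 strains with NMD intact were egl-9, with sa307, then egl-9 hif-1, with sa307 and ia4, and the wild type N2. The enzyme EGL-9 hydroxylates the hypoxia factor HIF-1 and so marks it for degradation, so egl-9 mutants hold active HIF-1, which is absent from egl-9 hif-1 mutants. Each NMD-deficient strain was set against the NMD-intact strain of the same HIF state, as smg-1 against N2 or smg-2 egl-9 hif-1 relative to egl-9 hif-1, which gives 6 comparisons. The labels give 1 strain for each genotype. Per the labels, 300 to 500 L4 larvae were picked for each sample and collected 6 h later, at 20 °C and 20% oxygen.

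Library totals ran from 9822412 to 33169699 counts. Every member had at least 806 counts in every library. The transcripts of the mutated genes were still counted, at 385 ± 79.2 CPM of smg-1 in smg-1 worms and 115 ± 18.4 CPM in N2, and at 87.1 ± 9.16 CPM of smg-2 in smg-2 worms and 86.5 ± 13.5 CPM in N2 (SD, n = 5 each; CPM is the count per 1000000 counts after TMM scaling). These levels do not check the labels. For hif-1, the level was 24.9 ± 7.65 CPM in egl-9 hif-1 worms and 166 ± 9.14 CPM in N2, but 323 ± 44.5 CPM in the smg-1 egl-9 hif-1 strain and 337 ± 34.9 CPM in the smg-2 egl-9 hif-1 strain.

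The transcript models describe how 5 members could be NMD targets (Ensembl release 115 on WBcel235; positions from 1). In rsp-4 (II:5387411-5388836, minus strand) a cassette exon of 186 nt at II:5388150-5388335 is present in the b isoforms, absent from the a isoform, and holds a stop codon from its base 35 on. The reading frame then ends after 126 codons, against 196 in the a isoform, and in b.1 the stop lies 204 nt before the last exon junction. In rsp-5 (II:6490165-6491340, plus strand) an exon of 163 nt at II:6490720-6490882 ends the frame after 166 codons, against 208. In rsp-7 (II:10659206-10662317, plus strand) an exon of 76 nt at II:10659787-10659862 ends it after 137 codons, against 452. In rsp-1 (II:11453362-11455864, plus strand) the b isoforms add alternative sequence with a stop at II:11454657-11454659, and 148 codons are left of 312. In rsp-6 (IV:7789847-7791229, minus strand) the annotation marks the isoform with an added exon of 247 nt, at IV:7790499-7790745, as non-coding.

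The other 3 members have no such exon in the annotation. The 2 models of rsp-3 (III:12686182-12687922, minus strand) code for the same 258 codons and differ behind the stop, where an intron in the longer model puts the stop 26 nt before the last junction. The gene rsp-2 (II:11451441-11452955, minus strand) has 1 model of 1078 nt. The gene rsp-8 (III:11826418-11830974, plus strand) has a model of 1189 nt and a short one of 435 nt with the same stop.

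Without NMD, rsp-6, rsp-7, rsp-8 and rsp-1 rose in all 6 comparisons and rsp-3 fell in all 6. The largest changes were those of rsp-6, at 1.58 to 1.94 times the NMD-intact level. The genes rsp-2 and rsp-5 rose in some comparisons only, and rsp-4 rose in none. Over all tested genes, 1834 (11.4%) were higher and 670 (4.17%) lower in all 6 comparisons. The 6 comparisons share 3 sets of NMD-intact libraries, so they are not 6 independent tests. All p-values below are from the quasi-likelihood test of edgeR, adjusted by Benjamini-Hochberg over all 16053 genes, and a gene is called where that value is under 0.05.

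In smg-1 against N2, 4 members were higher and 2 lower, where 28.8% of all tested genes were called higher and 24.3% lower. In smg-2 against N2 the counts were 6 and 1, beside 24.3% and 19.6% of all genes. In smg-1 egl-9 relative to egl-9 they were 6 and 1, beside 24.1% and 10.6%. In smg-2 egl-9 relative to egl-9 they were again 6 and 1, beside 23.6% and 9.66%. In the smg-1 egl-9 hif-1 strain relative to egl-9 hif-1, 5 stood higher and 1 lower, beside 18.6% and 18.0%. In the smg-2 egl-9 hif-1 strain relative to egl-9 hif-1, 5 stood higher and 3 lower, beside 25.8% and 26.0%. The median log2 fold change of the 8 members lay between 0.22 and 0.49, and that of all tested genes between -0.04 and 0.11.

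**Figure D1:**
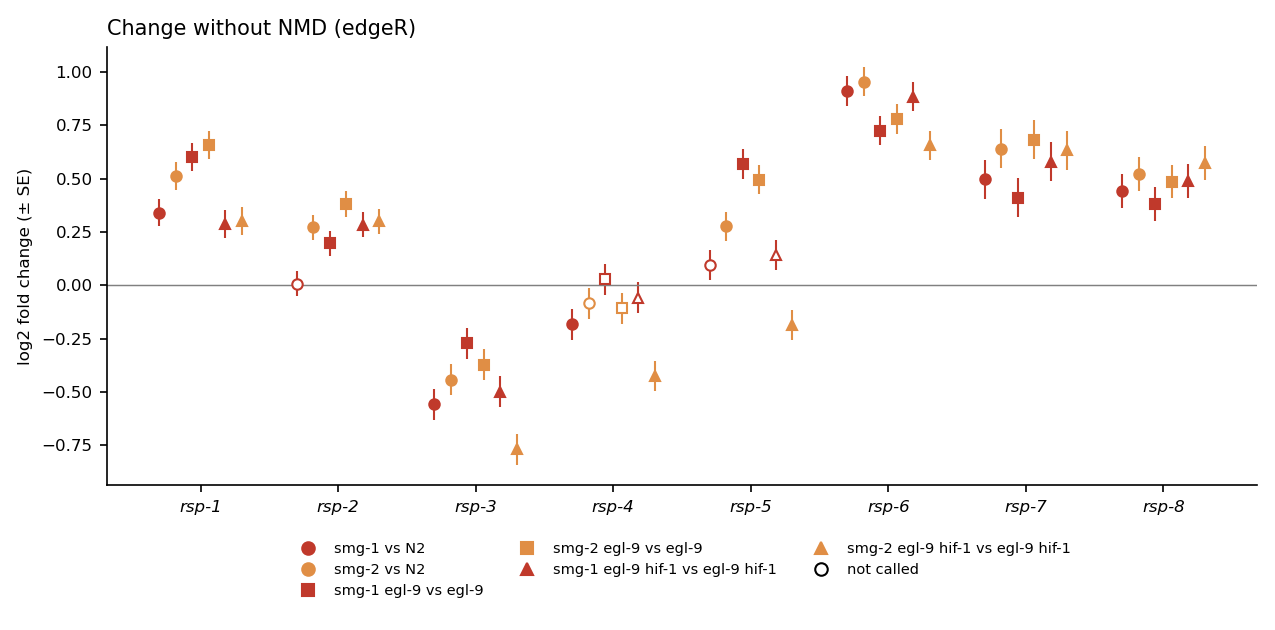
Log2 fold change of each SR gene (with its SE from edgeR) in the 6 comparisons of an NMD-deficient strain with the NMD-intact strain of the same HIF state; circles are the comparisons with N2, squares those with egl-9 and triangles those with egl-9 hif-1, and open symbols were not called. All 6 points of rsp-6, rsp-7, rsp-8 and rsp-1 lie above 0 and all 6 of rsp-3 below it, and rsp-4 and rsp-5 were called lower in the smg-2 egl-9 hif-1 strain.

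The gene rsp-6 encodes the counterpart of human SRSF3, one of the smallest SR proteins. It stood at 244, 264, 234, 256 and 274 CPM in smg-1 worms and 262, 246, 259.8, 264 and 281 in smg-2 worms, against 142, 123, 127, 152 and 133 in N2. In the egl-9 background it stood at 207, 221, 249, 225 and 240.2 CPM in smg-1 egl-9 and 229.9, 217, 249.8, 237 and 252 in smg-2 egl-9 worms, against 135, 121, 143, 149.9 and 141 in egl-9. In the egl-9 hif-1 background the values were 253, 249, 239, 266 and 246 CPM in the smg-1 egl-9 hif-1 strain and 206, 219, 199.9, 222 and 223 in the smg-2 egl-9 hif-1 strain, against 136, 137, 119, 134 and 153 in egl-9 hif-1. All 30 libraries without NMD were above all 15 with it. The log2 fold change was largest in smg-2 against N2 (0.95 ± 0.07 SE, adjusted p = 2.408e-15) and smallest in the smg-2 egl-9 hif-1 strain relative to egl-9 hif-1 (0.66 ± 0.07, adjusted p = 8.732e-11).

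The gene rsp-7 encodes an SR-related protein with the longest reading frame of the 8. It stood at 189.9, 188, 139, 186 and 209 CPM in smg-1 worms and 208, 218, 199.8, 213 and 168 in smg-2 worms, against 138, 129, 122, 128 and 129 in N2. It stood at 184, 157, 162, 196 and 151 CPM in smg-1 egl-9 and 217, 207, 194, 193 and 213 in smg-2 egl-9 worms, against 127, 119.8, 134, 129.8 and 128 in egl-9. With egl-9 hif-1 it stood at 193, 182, 157, 194 and 187 CPM in the smg-1 egl-9 hif-1 strain and 214, 183, 199, 184 and 167 in the smg-2 egl-9 hif-1 strain, against 138, 132, 98.8, 126 and 116 in egl-9 hif-1. The groups did not overlap in any of the 6 comparisons, and replicate C of smg-1, at 139 CPM, was the lowest NMD-deficient library. The log2 fold change lay between 0.41 ± 0.09 in smg-1 egl-9 (adjusted p = 0.0004451) and 0.68 ± 0.09 in smg-2 egl-9 (adjusted p = 5.052e-08). On the deposited log2(TPM + 1) values the change in smg-1 egl-9 was 0.24 and was not called (limma, adjusted p = 0.1559). An opposite-strand gene, D2089.8, shares 73 nt of exon with rsp-7. It averaged 3.17 CPM in libraries without NMD and 5.19 CPM with it, here without TMM scaling.

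The gene rsp-8 encodes a protein of the Tra2 group, which binds purine-rich exonic enhancers. It stood at 134, 141, 122, 143 and 146 CPM in smg-1 worms and 155, 158, 142, 141 and 129 in smg-2 worms, against 96.7, 103, 105, 104 and 95.9 in N2. It stood at 146, 118, 131, 152 and 116 CPM in smg-1 egl-9 and 152, 129, 141, 139.6 and 151 in smg-2 egl-9 worms, against 105, 97.8, 106, 101 and 99.1 in egl-9. With egl-9 hif-1 it stood at 139, 144, 112, 144 and 136 CPM in the smg-1 egl-9 hif-1 strain and 166, 133, 149, 131 and 136 in the smg-2 egl-9 hif-1 strain, against 97.1, 106, 90.3, 97.6 and 89.7 in egl-9 hif-1. Again the groups did not overlap in any of the 6 comparisons. Its changes were the most even of the 8, from 0.38 ± 0.08 in smg-1 egl-9 (adjusted p = 0.0001651) to 0.57 ± 0.08 in the smg-2 egl-9 hif-1 strain (adjusted p = 5.52e-08). Its annotation holds no added exon with a stop. On the deposited log2(TPM + 1) values the change in smg-1 egl-9 was 0.25 and was not called (limma, adjusted p = 0.1076).

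The gene rsp-1 encodes a larger SR protein with a long arginine-serine domain. It stood at 205, 207, 216, 195 and 214 CPM in smg-1 worms and 225, 241, 237, 221 and 245 in smg-2 worms, against 180.1, 159, 146, 179 and 156 in N2. It stood at 206, 244, 245, 223 and 246 CPM in smg-1 egl-9 and 245, 232, 253, 244 and 235.5 in smg-2 egl-9 worms, against 153, 152, 155, 162 and 145 in egl-9. With egl-9 hif-1 it stood at 193, 199.5, 206, 211 and 185 CPM in the smg-1 egl-9 hif-1 strain and 216, 200.3, 181, 203 and 204 in the smg-2 egl-9 hif-1 strain, against 162, 148, 167, 156 and 182 in egl-9 hif-1. The groups were apart in 5 comparisons and touched in the smg-2 egl-9 hif-1 strain, where replicate C lay just below the highest egl-9 hif-1 library. The rise was 0.66 ± 0.06 in smg-2 egl-9 (adjusted p = 1.849e-11) and 0.29 ± 0.06 in the smg-1 egl-9 hif-1 strain (adjusted p = 0.000372), the ends of its range.

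The gene rsp-3 encodes the counterpart of human SRSF1 (SF2/ASF) and is needed for embryonic development. It stood at 186, 185, 179.8, 174 and 165 CPM in smg-1 worms and 204, 191, 178, 188 and 201 in smg-2 worms, against 254, 267, 232, 314 and 243 in N2. It stood at 215, 225, 244, 201 and 233 CPM in smg-1 egl-9 and 213, 205, 227, 203 and 197 in smg-2 egl-9 worms, against 265, 257, 284, 292 and 252 in egl-9. With egl-9 hif-1 it stood at 184, 184, 190.4, 170.1 and 168 CPM in the smg-1 egl-9 hif-1 strain and 158, 159, 124, 155 and 147 in the smg-2 egl-9 hif-1 strain, against 256, 249.6, 239.6, 248 and 273 in egl-9 hif-1. Each NMD-deficient group lay below its NMD-intact group with no overlap, and rsp-3 fell to 0.59 times the egl-9 hif-1 level in the smg-2 egl-9 hif-1 strain (log2 -0.77 ± 0.07, adjusted p = 5.704e-12). Of 5 oocyte and germline markers, described below, 1 (in smg-2 egl-9) to 5 were called lower in the same comparisons. Of 5 sperm markers, 0 were called lower in smg-1 or smg-2 against N2, and 4 were called higher in smg-1 egl-9 relative to egl-9. The part of the germ line in the fall of rsp-3 was not tested. The smallest fall was that of smg-1 egl-9 relative to egl-9 (log2 -0.27 ± 0.07, adjusted p = 0.003181). The opposite-strand gene elpc-2 shares 44 nt of exon with rsp-3, and whether counting used the strand is not given in the sources used here.

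**Figure D2:**
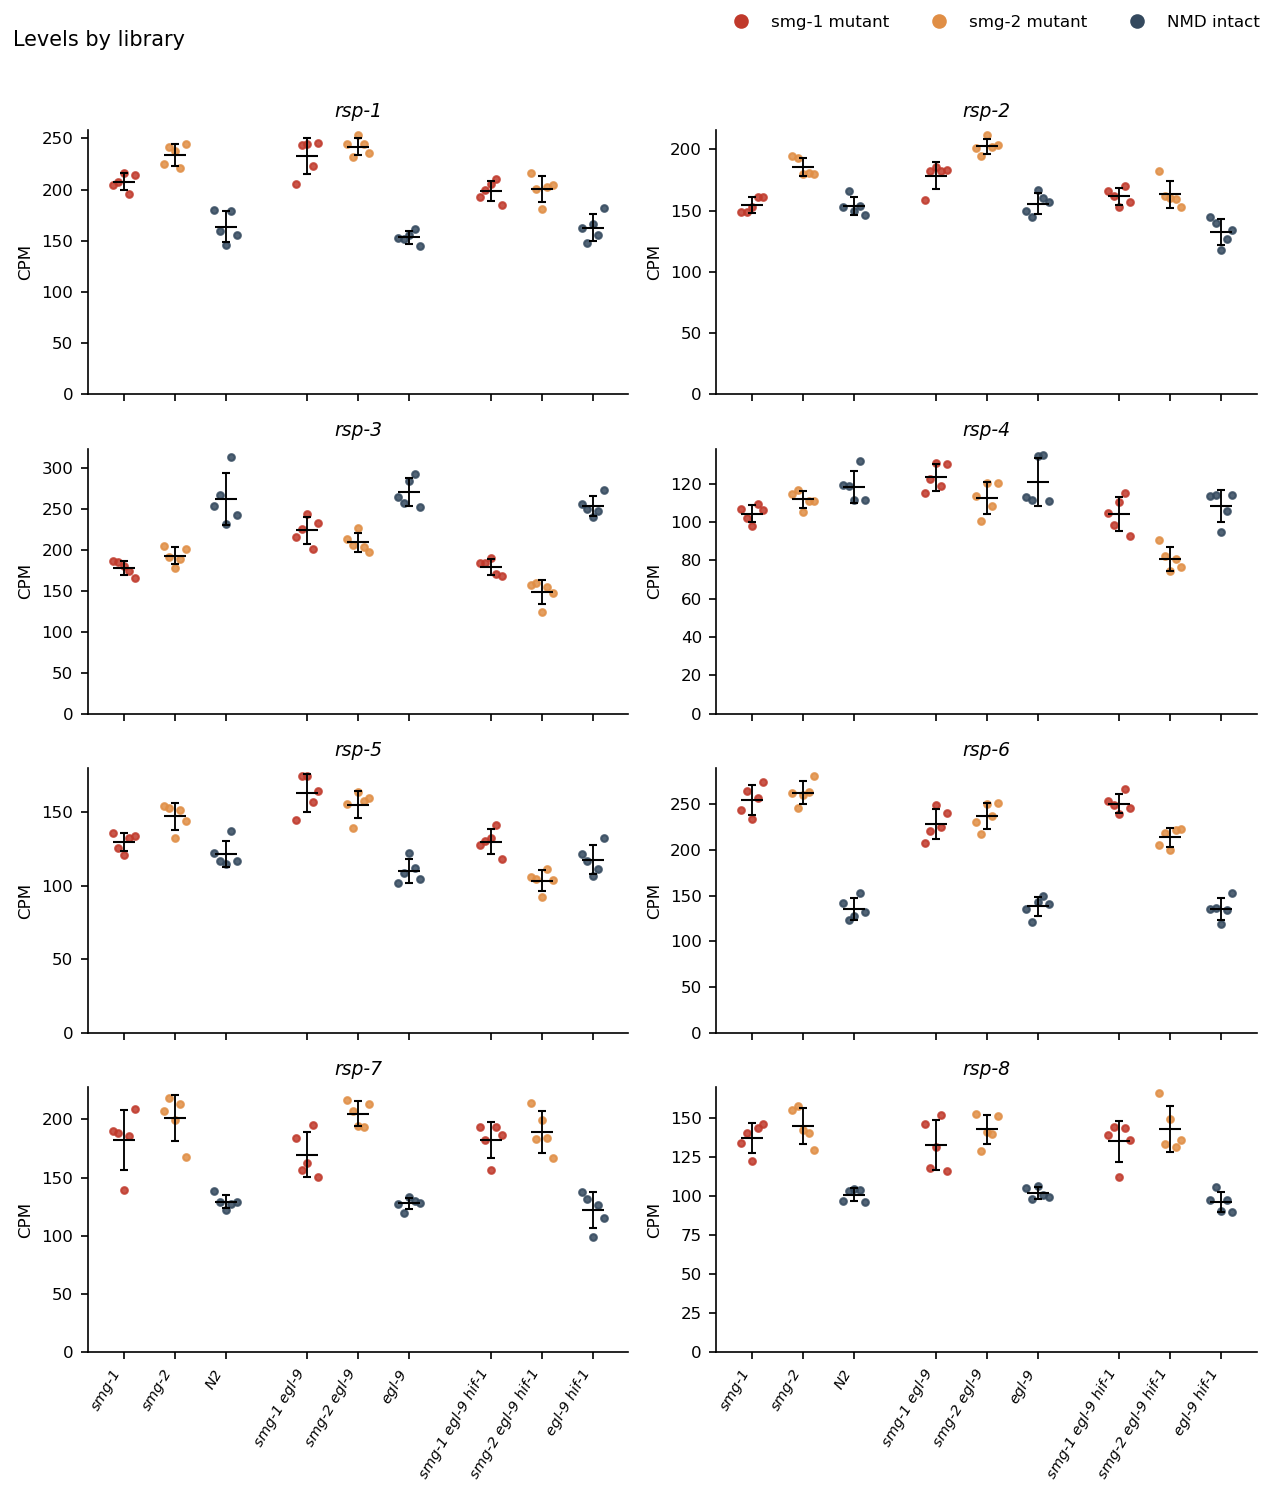
TMM-scaled CPM of the 8 SR genes in every library (points), with the mean and SD of each genotype (black, n = 5), in 3 blocks of smg-1, smg-2 and NMD-intact worms for the N2, egl-9 and egl-9 hif-1 states. In rsp-6 all 30 NMD-deficient libraries lie above all 15 NMD-intact ones, in rsp-3 the order is turned round within each block, and in rsp-4 the blocks overlap except in smg-1 against N2 and in the smg-2 egl-9 hif-1 strain.

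The remaining members gave calls that differed between comparisons. The gene rsp-2 lies head to head with rsp-1, with 406 nt between the annotated gene bounds. The bound of rsp-1 is that of its non-coding model, and its coding models start at II:11453974 or further on. The gene rsp-2 had 154 ± 6.31 CPM in smg-1 worms and 154 ± 7.32 CPM in N2 (SD, n = 5 each), a log2 difference of 0.01 ± 0.06 (adjusted p = 0.924). With a mean filter of 5 CPM that difference was 0.13 and was called (adjusted p = 0.04229), and 6 in place of 4 members were then higher in smg-1 against N2. The values of rsp-4 and rsp-5 there moved upward with this filter as well, to -0.06 and 0.22. The shift of all genes under this filter and the share of them called are not given here. The level of rsp-2 was 186 ± 7.57 CPM in smg-2 worms, 178 ± 10.9 in smg-1 egl-9, 203 ± 6.06 in smg-2 egl-9, 162 ± 6.81 in the smg-1 egl-9 hif-1 strain and 163 ± 11.2 in the smg-2 egl-9 hif-1 strain, against 156 ± 8.74 in egl-9 worms and 133 ± 10.8 in the egl-9 hif-1 strain. In the order of the 9 genotype means of rsp-2, only egl-9 hif-1, the lowest, did not overlap with its neighbour. It was higher in the other 5 comparisons, by 0.20 to 0.38. The smallest of these, in smg-1 egl-9, was lost under 5 of the 7 other settings, where its adjusted p ran from 0.1192 to 0.5753.

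The gene rsp-5 encodes an SR protein related to SC35. Its mean was 130 ± 6.11 CPM in smg-1 worms and 147 ± 8.99 CPM in smg-2 worms, against 121 ± 9.04 CPM in N2, and each neighbouring pair in the order of its 9 genotype means overlapped. It rose in smg-1 egl-9 worms, at 163 ± 12.7 CPM against 110 ± 8.05 CPM in egl-9 (log2 0.57 ± 0.07, adjusted p = 7.964e-09). It also rose in smg-2 egl-9, at 155 ± 9.24 CPM (0.50 ± 0.07, adjusted p = 1.47e-07) and in smg-2 against N2 (0.28 ± 0.07, adjusted p = 0.001256), the last of which was not called on the deposited log2(TPM + 1) values (0.14, adjusted p = 0.1375). The values were 0.10 ± 0.07 in smg-1 against N2 (adjusted p = 0.2474) and 0.14 ± 0.07 in the smg-1 egl-9 hif-1 strain relative to egl-9 hif-1 (adjusted p = 0.1074). Both were called with a mean filter of 5 CPM, at 0.22 and 0.24 (adjusted p = 0.004985 and 0.003421), and the second also without replicate E of egl-9 hif-1 (0.23, adjusted p = 0.01001), with DESeq2 size factors (0.18, adjusted p = 0.04272) and in the DESeq2 Wald test (0.18, adjusted p = 0.02651). In the smg-2 egl-9 hif-1 strain it was called lower, at 103 ± 7.04 CPM against 118 ± 9.71 CPM in egl-9 hif-1 (log2 -0.19 ± 0.07, adjusted p = 0.02261), with overlapping libraries. That last call was lost with a mean filter of 5 CPM (log2 -0.04, adjusted p = 0.6285), under 3 other settings, and without any 1 of 7 libraries, replicates C, D and E of egl-9 hif-1 (adjusted p = 0.08558, 0.1204 and 0.4411) and B, C, D and E of smg-2 egl-9 hif-1 (adjusted p = 0.1496, 0.08616, 0.1175 and 0.1522).

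The gene rsp-4 encodes the counterpart of human SRSF2 (SC35). It fell in the smg-2 egl-9 hif-1 strain, at 80.9 ± 6.24 CPM against 109 ± 8.31 CPM in egl-9 hif-1 (log2 -0.42 ± 0.07, adjusted p = 3.612e-06). It was also called lower in smg-1 worms, at 104 ± 4.48 CPM against 119 ± 8.29 CPM in N2, by a log2 value of -0.18 ± 0.07 (adjusted p = 0.03097), a call that was lost without replicate B of smg-1 (adjusted p = 0.0587) or replicate D of N2 (adjusted p = 0.1123). The mean filter of 5 CPM gave -0.06 there (adjusted p = 0.4407). The other means were 112 ± 4.45 CPM in smg-2, 124 ± 7.05 in smg-1 egl-9, 113 ± 8.39 in smg-2 egl-9 and 104 ± 8.97 in the smg-1 egl-9 hif-1 strain, against 121 ± 12.6 in egl-9. In these 4 comparisons its log2 value lay between -0.11 and 0.03 and was not called. With DESeq2 size factors in place of TMM the value in smg-2 egl-9 relative to egl-9 was -0.22 and was called (adjusted p = 0.01914). That scaling moved the median of all tested genes in the comparison by -0.11.

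The level of a gene does not show which isoforms make it up, but the deposited files hold a second measure. The counts and the TPM values of a gene differ by the mean length of the transcripts to which the authors' quantifier (RSEM) assigned its fragments, so log2 of count over TPM is an index of that length. Converted to nucleotides, it came within 2% of the annotated length in 100% of 4350 genes with 1 transcript, the genes that also set the conversion. It returned 1078 nt for rsp-2 and 1189 nt for rsp-8 in every library. The gene rsp-2 has 1 transcript and is among the genes that set the conversion, so its value is no separate check. The value of rsp-8 is the length of its longer model. The index rests on the isoform models and the assignment of the quantifier, not on counted junction reads.

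Without NMD, the fragments of rsp-1, rsp-3, rsp-4, rsp-5 and rsp-7 were assigned to longer transcripts in all 6 comparisons. The index was tested with limma over 11868 genes with at least 10 counts in every library. Longer transcripts were called in 0.868% of all genes in smg-1 against N2, 1.08% in smg-2 against N2, 0.657% in smg-1 egl-9, 0.750% in smg-2 egl-9, 0.792% in the smg-1 egl-9 hif-1 strain and 1.53% in the smg-2 egl-9 hif-1 strain. The same 5 of the 8 members were called longer each time, and the other 3 were not called. Between the NMD-intact strains 0 of the 8 were called by limma, where 0.430% of all genes were called in egl-9 against N2, 0.219% in egl-9 hif-1 relative to egl-9 and 0.110% between egl-9 hif-1 and N2. Of the 8, 5 had an unadjusted p under 0.05 in egl-9 against N2 and 0 in either of the other comparisons of NMD-intact strains. Adjustment over all genes took the largest of these 5 only from 0.04243 to 0.07884 (rsp-2, limma). Small p-values were thus common over all genes in egl-9 against N2, and those 5 are not particular to the SR genes. Without NMD, rsp-4 was shorter in smg-1 egl-9 than in smg-1 (log2 -0.02 ± 0.01, adjusted p = 0.01771, where 0.211% of genes were called shorter) and longer in the smg-1 egl-9 hif-1 strain than in smg-1 egl-9 (0.03 ± 0.01, adjusted p = 0.003239, where 0.185% were called longer). Over genes with 1 annotated transcript the calls were 2 of 7201 in smg-1 against N2, and over genes with several they were 195 of 4667. The 95th percentile of the absolute log2 shift over genes with 1 transcript ran from 0.00862 in smg-2 egl-9 to 0.0491 in smg-2 against N2. In smg-2 against N2 the shifts of rsp-3, rsp-4 and rsp-7 (0.0088, 0.0436 and 0.0407) lay below that value. Those of rsp-1 and rsp-5 (0.1407 and 0.1526) lay above it. The shift of rsp-3 was also below the percentile in smg-1 against N2 (0.0125, percentile 0.015) and in smg-1 egl-9 (0.0106, percentile 0.0289). The same held in the smg-1 egl-9 hif-1 strain (0.0142, percentile 0.0209) and the smg-2 egl-9 hif-1 strain (0.0137, percentile 0.037). Only in smg-2 egl-9 was it above (0.0115, percentile 0.00862).

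The largest shift was that of rsp-5. Its assigned length was 816, 823, 817, 829 and 835 nt in smg-1 and 835, 840.4, 828, 833 and 827 nt in smg-2 worms, against 763, 766, 771, 763 and 765 nt in N2. All 30 NMD-deficient libraries, at 813 to 840 nt, lay above all 15 NMD-intact ones, at 760 to 771 nt. The a isoform without the stop exon measures 753 nt and the 4 isoforms with it 916 to 1056 nt. If all fragments came from these models, the isoforms with the stop exon made up between 23.5% and 43.7% of rsp-5 molecules in smg-1 worms and between 4.18% and 7.76% in N2, the bounds being the longest and the shortest such model. The log2 difference was 0.14 ± 0.01 in smg-1 against N2 (limma, adjusted p = 2.823e-16) and 0.16 ± 0.01 in the smg-2 egl-9 hif-1 strain relative to egl-9 hif-1 (adjusted p = 1.418e-18), 2 comparisons in which the total of rsp-5 was not called or was lower.

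The assigned length of rsp-1 was 1303, 1299, 1307, 1275 and 1274 nt in smg-1 and 1300.4, 1309.6, 1325, 1326 and 1303 nt in smg-2 worms, against 1205, 1209.5, 1215, 1210.2 and 1210.0 nt in N2. Its 30 NMD-deficient libraries lay at 1273 to 1330 nt and the 15 NMD-intact ones at 1203 to 1218 nt, without overlap. The coding a.1 isoform measures 1171 nt and the 3 isoforms with the early stop 1395 to 1545 nt. Its log2 difference lay between 0.10 ± 0.01 in the smg-1 egl-9 hif-1 strain (adjusted p = 4.259e-10) and 0.14 ± 0.01 in smg-2 against N2 (adjusted p = 2.449e-14). The gene also has a shorter model of 935 nt and a non-coding one of 2243 nt, so no share was computed.

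The assigned length of rsp-7 was 1616, 1609, 1606, 1609.8 and 1610.4 nt in smg-1 and 1618, 1621, 1614, 1616 and 1614 nt in smg-2 worms, against 1573, 1579.6, 1587, 1581 and 1585 nt in N2. The ranges over all libraries were 1601 to 1623 nt without NMD and 1570 to 1588 nt with it. The a isoform measures 1556 nt and the 2 isoforms with the stop exon 1632 and 1803 nt, which bounds their share between 21.3% and 69.4% in smg-1 egl-9 worms and between 8.44% and 27.4% in egl-9. These bounds overlap. The log2 difference of the index lay between 0.03 and 0.04 (adjusted p from 2.896e-10 in the smg-2 egl-9 hif-1 strain to 1.226e-06 in the smg-1 egl-9 hif-1 strain).

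**Figure D3:**
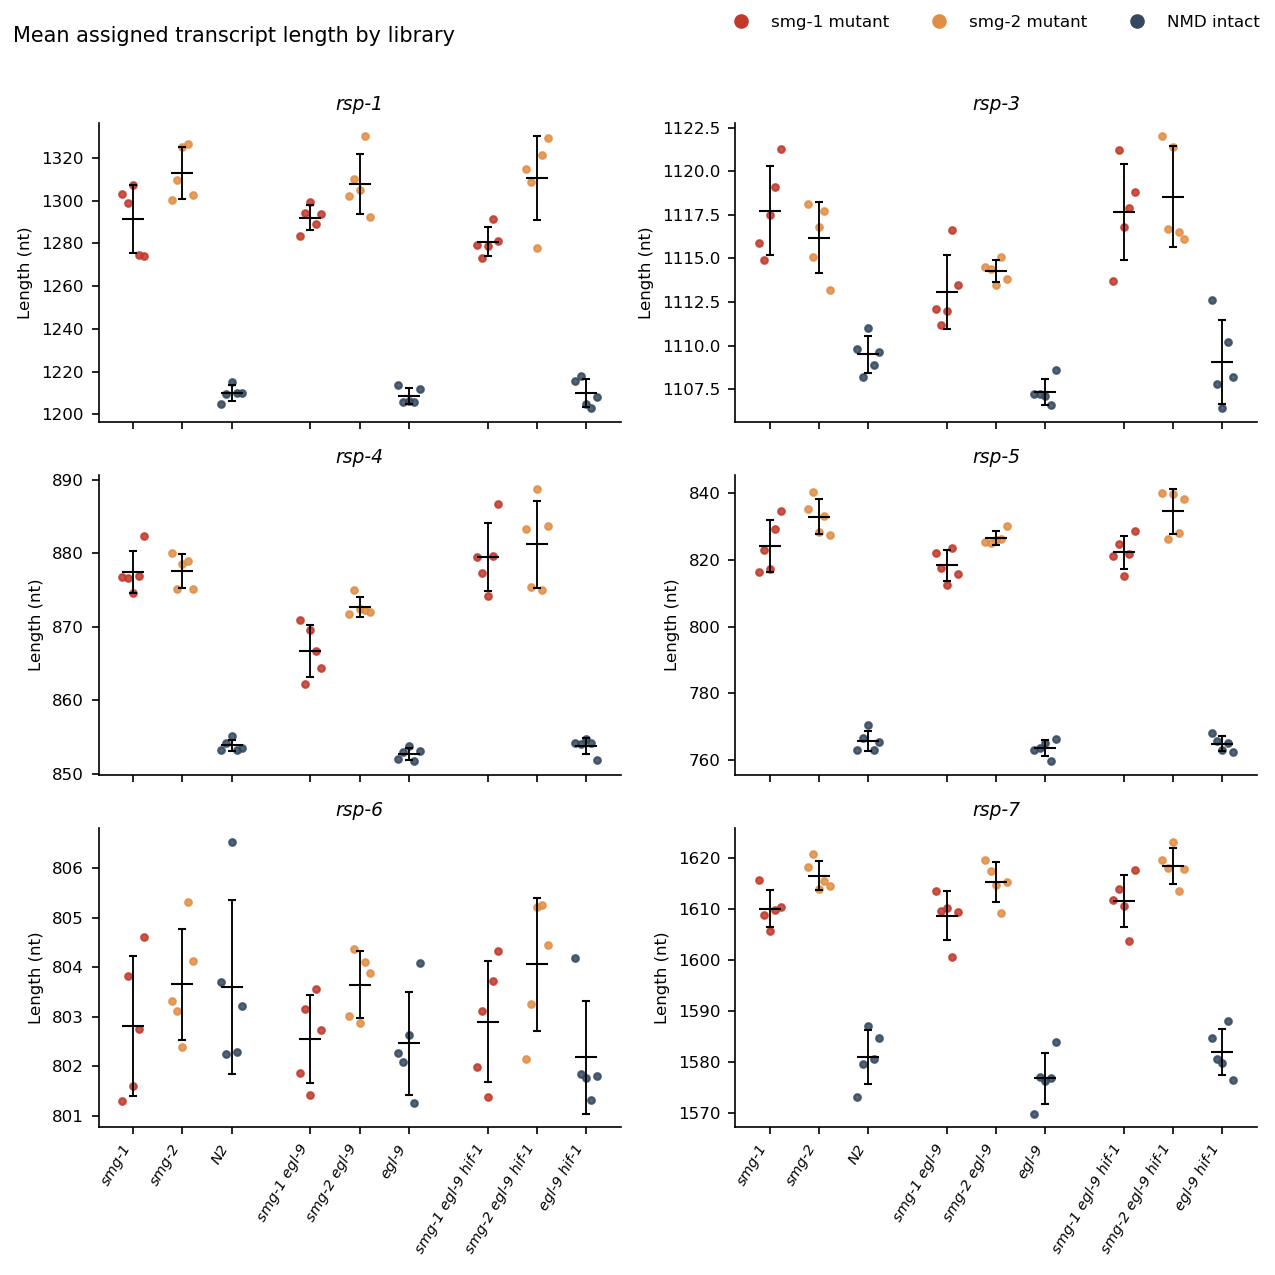
Mean length of the transcripts to which fragments of 6 SR genes were assigned, in nt, in every library (points) with the mean and SD of each genotype (black, n = 5); the vertical axes do not start at 0 and differ between genes. The NMD-deficient libraries of rsp-1, rsp-4, rsp-5 and rsp-7 all lie above the NMD-intact ones, those of rsp-3 overlap with them across blocks, and those of rsp-6 are mixed with them within 801 to 807 nt.

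In rsp-4 the length moved while the total mostly did not. Its assigned length was 877, 877, 875, 877 and 882 nt in smg-1 and 880.1, 875, 879, 879 and 875 nt in smg-2 worms, against 853, 854, 855, 853 and 853 nt in N2. The a isoform measures 850 nt and the b isoforms with the stop exon 1030 and 1029 nt, so the length converts to a share of molecules, a conversion chosen after the lengths were seen. The b isoforms then made up 15.3% ± 1.61 in smg-1 worms and 15.3% ± 1.29 in smg-2 worms, against 2.14% ± 0.443 in N2 (SD, n = 5 each). They made up 9.32% ± 1.98 in the smg-1 egl-9 strain and 12.6% ± 0.740 in smg-2 egl-9, against 1.50% ± 0.465 in egl-9. With egl-9 hif-1 the shares were 16.4% ± 2.57 in the smg-1 egl-9 hif-1 strain and 17.4% ± 3.29 in the smg-2 egl-9 hif-1 strain, against 2.09% ± 0.613 in egl-9 hif-1. The ranges of the NMD-deficient and NMD-intact libraries did not overlap in any of the 3 states. The index was higher in all 6 comparisons, with adjusted p from 1.783e-10 in the smg-1 egl-9 hif-1 strain to 1.138e-05 in smg-1 egl-9 (limma).

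Split by these shares, the b isoforms of rsp-4 stood at 19.4 ± 2.85 TPM in smg-1 worms and 20.2 ± 2.06 TPM in smg-2 worms, against 3.04 ± 0.645 TPM in N2. The a isoform stood at 107 ± 7.58 TPM in smg-1 and 112 ± 9.13 TPM in smg-2 worms, against 139 ± 7.78 TPM in N2. The a isoform ranged from 97.9 to 118 TPM in smg-1 and from 98.4 to 124 TPM in smg-2 libraries, all below the 132 to 150.3 TPM of N2. In the egl-9 state the a isoform stood at 132 ± 7.82 TPM in smg-1 egl-9 and 127 ± 10.7 TPM in smg-2 egl-9, against 157 ± 13.9 TPM in egl-9, with overlapping libraries. In the egl-9 hif-1 state it stood at 103 ± 7.62 TPM in the smg-1 egl-9 hif-1 strain and 81.6 ± 8.82 TPM in the smg-2 egl-9 hif-1 strain, against 119 ± 17.7 TPM in egl-9 hif-1. There the smg-1 egl-9 hif-1 libraries overlapped with egl-9 hif-1, and those of smg-2 egl-9 hif-1, at 70.0 to 91.3 TPM, lay below its lowest, at 93.7 TPM. These split levels are descriptions and were not tested.

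The 2 models of rsp-3 measure 1103 and 1336 nt, and the same conversion applies. The long model, which carries the intron behind the stop, made up 6.33% ± 1.09 of molecules in smg-1 and 5.66% ± 0.870 in smg-2 worms, against 2.79% ± 0.450 in N2 (SD, n = 5 each). Its level was 10.0 ± 1.37 TPM in smg-1 and 9.45 ± 1.64 TPM in smg-2 worms, against 6.24 ± 0.596 TPM in N2. The short model stood at 149 ± 9.09 TPM in smg-1 and 158 ± 12.0 TPM in smg-2 worms, against 220 ± 18.5 TPM in N2. These shares rest on length shifts below the 95th percentile over genes with 1 transcript (0.0125 and 0.015 in smg-1, 0.0088 and 0.0491 in smg-2). The call on the length of rsp-3 in smg-2 against N2 had an adjusted p of 0.007361, and it was lost when only the libraries of those 2 genotypes were fitted (adjusted p = 0.206) or when the index was centred on all genes (adjusted p = 0.2417). Those of smg-1 against N2 (adjusted p = 0.07602 with only the compared libraries) and of smg-1 egl-9 relative to egl-9 (adjusted p = 0.2152 centred on all genes) were lost as well, so 3 of the 6 length calls of rsp-3 depended on these settings.

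**Figure D4:**
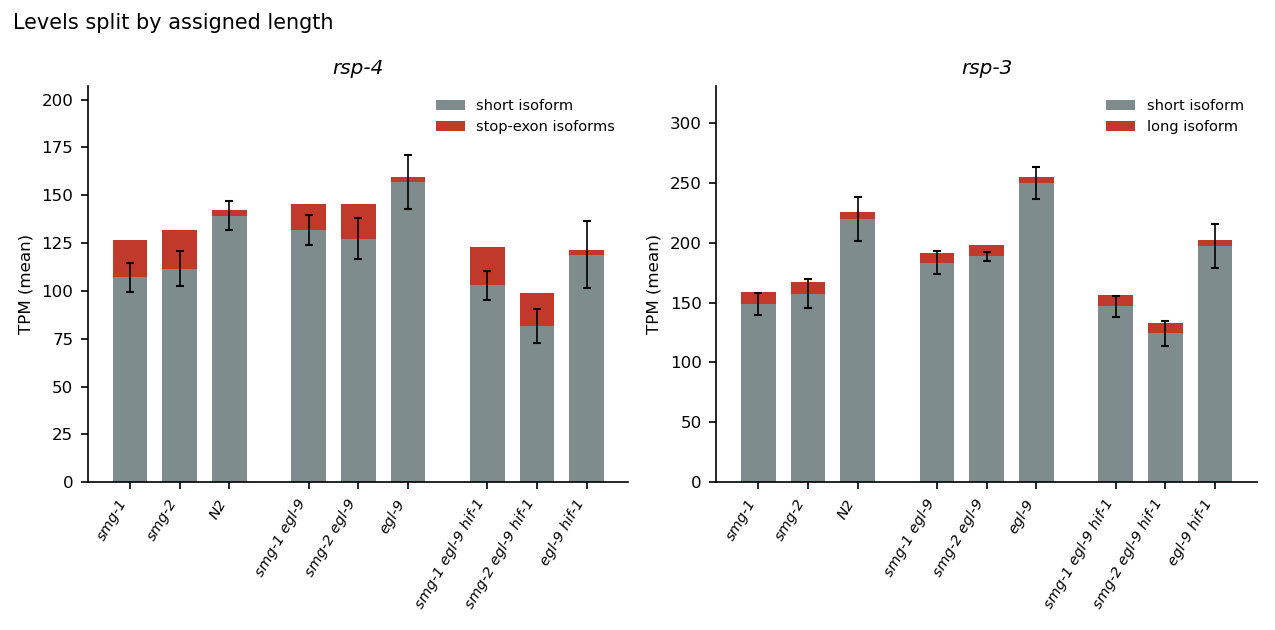
Mean TPM of rsp-4 and rsp-3 in each genotype, split into the short model (grey, with its SD, n = 5) and the longer models (red) by the assigned length. In rsp-4 the isoforms with the stop exon take 9.32% to 17.4% of the bar without NMD and 1.50% to 2.14% with it, and in rsp-3 the grey part carries the lower total without NMD.

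The assigned length of rsp-6 did not separate the groups. Its coding isoform measures 798 nt and the isoform with the added exon 787 nt. The latter model ends at the stop codon, with a last exon of 94 nt against 351 nt in the coding isoform. The added exon of 247 nt therefore leaves the 2 models nearly equal in length, and the index can hardly show its inclusion. The assigned length was 803 ± 1.41 nt in smg-1 worms and 804 ± 1.76 nt in N2 (SD, n = 5 each), and the index was not called in any of the 6 comparisons. The lowest adjusted p was 0.1492, in smg-2 against N2. All 45 libraries lay at 801 to 807 nt, above the coding isoform, and another model that keeps introns measures 979 nt. With 3 models the mean length does not fix their shares, and none was computed.

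The HIF state by itself moved few SR genes where NMD was intact. In egl-9 against N2, 0 of the 8 were called by edgeR, where 33.7% of all genes were called in either direction, and 1 of the 8, rsp-5, had an unadjusted p under 0.05 (log2 -0.14 ± 0.07). DESeq2 also called 0 of the 8, and limma on the deposited TPM values called rsp-3 higher (0.17, adjusted p = 0.04167). In egl-9 hif-1 relative to egl-9, where 46.8% of all genes were called, only rsp-2 was called, at 133 ± 10.8 CPM in egl-9 hif-1 and 156 ± 8.74 CPM in egl-9 (log2 -0.23 ± 0.06, adjusted p = 0.001617). Its level in egl-9 hif-1 was also below that of N2 (-0.21 ± 0.06, adjusted p = 0.01394), where 14.5% of all genes were called, a call lost without replicate B of N2 (adjusted p = 0.05909) or with only the compared libraries (adjusted p = 0.1735). With DESeq2 size factors, which moved the median of all genes in egl-9 hif-1 relative to egl-9 by -0.10, rsp-3, rsp-4 and rsp-8 were called lower there as well. With these factors 8081 of the 16053 genes were called there, 3603 of them higher. On the deposited log2(TPM + 1) values 6 of the 8 were called lower there. The share of all genes called on those values is not given here, so that count cannot be set against it.

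Without NMD, rsp-1 to rsp-5 were called in 3 of 4 comparisons of HIF states. In smg-1 egl-9 relative to smg-1, rsp-1 to rsp-5 were higher, by 0.16 to 0.33, where 25.1% of all genes were called higher. In the smg-1 egl-9 hif-1 strain relative to smg-1 egl-9 the same 5 were lower, with log2 values of -0.33 to -0.14, where 25.7% were called lower. In the smg-2 egl-9 hif-1 strain relative to smg-2 egl-9 the same 5 were lower again, where 29.2% were called lower, and rsp-5 had the largest change (log2 -0.58 ± 0.07, adjusted p = 3.473e-09). These comparisons share the egl-9 double mutants. The oocyte and germline markers described below moved with them, 3 of 5 called higher in smg-1 egl-9 relative to smg-1, 4 of 5 lower in the smg-1 egl-9 hif-1 strain relative to smg-1 egl-9 and 4 of 5 lower with 1 higher in the smg-2 egl-9 hif-1 strain relative to smg-2 egl-9. In smg-2 egl-9 relative to smg-2, where no SR gene was called by edgeR, 3 of these 5 markers were higher and 1 lower, and their median log2 value was 0.55, beside 0.57 in smg-1 egl-9 relative to smg-1. The 5 sperm markers went the other way, 4 called lower in smg-1 egl-9 relative to smg-1 and 5 in smg-2 egl-9 relative to smg-2. All 5 were called higher in the smg-1 egl-9 hif-1 strain relative to smg-1 egl-9. All 5 were also higher in the smg-2 egl-9 hif-1 strain relative to smg-2 egl-9. With NMD intact, all 5 sperm markers were lower in egl-9 against N2 (median log2 -1.29) and higher in egl-9 hif-1 relative to egl-9 (1.69). In these 2 comparisons 0 and 1 SR genes were called. Of the oocyte and germline markers, 1 was lower in the first, and 1 was higher and 2 lower in the second. Of 5 soma markers, 4 were called lower and 0 higher in smg-1 egl-9 relative to smg-1. The part of the markers in the result was not tested. Several calls rested on single libraries or settings. That of rsp-1 in smg-1 egl-9 was lost without replicate A, C or D of smg-1 or B, C or E of smg-1 egl-9 (adjusted p 0.05848 to 0.1535), with a mean filter of 5 CPM, with only the compared libraries and on the TPM values (adjusted p = 0.2158, 0.2301 and 0.1901). That of rsp-2 there was lost with only the compared libraries and on the TPM values (adjusted p = 0.07395 and 0.2034). That of rsp-2 in the smg-1 egl-9 hif-1 strain was lost without replicate B, C, D or E of smg-1 egl-9 or B, C or E of smg-1 egl-9 hif-1 (adjusted p 0.06608 to 0.2357) and under 6 of the 7 other settings (adjusted p 0.06846 to 0.3609). With only the compared libraries, rsp-1 and rsp-4 were lost there too (adjusted p = 0.1039 and 0.07906). That of rsp-1 in the smg-2 egl-9 hif-1 strain was lost without its replicate B, D or E (adjusted p 0.07346 to 0.1209) or with the filter of 5 CPM (adjusted p = 0.05419). In smg-2 egl-9 relative to smg-2, 0 of 8 were called by edgeR, where 41.0% of all genes were called, 2 had an unadjusted p under 0.05, and limma on the TPM values called 4. No share of all genes is given for the TPM values. The log2 values of rsp-6, rsp-7 and rsp-8 lay between -0.16 and 0.13 in these 4 comparisons and were not called. For rsp-6 this depended on the setting. In smg-1 egl-9 relative to smg-1 it stood at -0.16 (adjusted p = 0.05477) and was called lower with the filter of 5 CPM (-0.22, adjusted p = 0.006814), on the TPM values (-0.22, adjusted p = 0.018) and without replicate A or C of smg-1 or C or E of smg-1 egl-9 (adjusted p 0.02846 to 0.04947). It was called lower in smg-2 egl-9 relative to smg-2 with the filter of 5 CPM (adjusted p = 0.01507) or without replicate C of smg-2 (adjusted p = 0.04994). It was called lower in the smg-2 egl-9 hif-1 strain relative to smg-2 egl-9 on the TPM values (adjusted p = 0.01541) or without replicate B of smg-2 egl-9 (adjusted p = 0.03142), and higher in the smg-1 egl-9 hif-1 strain relative to smg-1 egl-9 with the filter of 5 CPM (adjusted p = 0.0146). The gene rsp-7 was called lower in smg-1 egl-9 relative to smg-1 without replicate C of smg-1 (adjusted p = 0.0447), and rsp-8 higher in the smg-2 egl-9 hif-1 strain relative to smg-2 egl-9 without its replicate D (adjusted p = 0.04782).

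**Figure D5:**
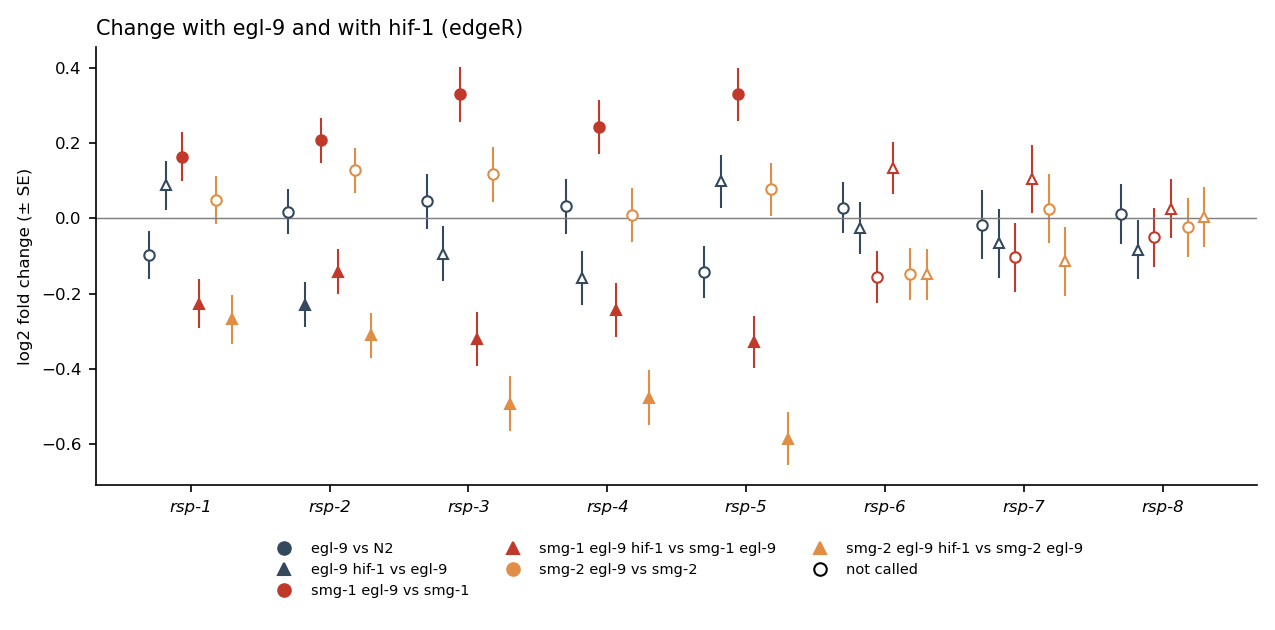
Log2 fold change of each SR gene (with its SE from edgeR) for egl-9 against its partner without the egl-9 mutation (circles) and for egl-9 hif-1 relative to egl-9 (triangles), with NMD intact (dark), in smg-1 (red) and in smg-2 (orange) worms; open symbols were not called. The filled triangles of rsp-1 to rsp-5 in smg-1 and smg-2 worms lie below 0, and no point of rsp-6, rsp-7 or rsp-8 is filled.

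The differences of the NMD effect between HIF states were tested as interactions. The effect of smg-1 on rsp-5 was larger in egl-9 than in N2, by 0.47 ± 0.10 on the log2 scale (adjusted p = 0.003631), where 5.78% of all genes were called in that direction. On the deposited TPM values it was 0.28 and not called (limma, adjusted p = 0.09012). The effect of smg-2 on rsp-5 was smaller in the egl-9 hif-1 state than in egl-9, by a log2 value of -0.68 ± 0.10 (adjusted p = 1.709e-06), where 15.4% were called in that direction. It was called under each of the 7 other settings, with log2 values from -0.69 to -0.52. The values of rsp-1, rsp-3 and rsp-4 in that interaction were -0.36 ± 0.09, -0.40 ± 0.10 and -0.32 ± 0.10 (adjusted p = 0.004037, 0.004352 and 0.02269), beside a median of -0.13 over all genes. With DESeq2 size factors, which moved that median by 0.12, these 3 were not called (adjusted p = 0.1001, 0.07876 and 0.2214), nor were they without a filter, in the DESeq2 Wald test or on the TPM values (adjusted p 0.05522 to 0.4091). They were lost as well without any 1 of 6 libraries: replicates C, D and E of egl-9 hif-1 and B, D and E of smg-2 egl-9 hif-1. The corresponding smg-1 interaction was called for rsp-1 (-0.31 ± 0.09, adjusted p = 0.04232) and rsp-5 (-0.43 ± 0.10, adjusted p = 0.008241), where 2.82% of genes were called in that direction, and both were lost with DESeq2 size factors (adjusted p = 0.3425 and 0.09857), without a filter, with only the compared libraries, on the TPM values (adjusted p 0.1043 to 0.9241) and without replicate E of egl-9 hif-1 (adjusted p = 0.4607 and 0.1049). That of rsp-1 was also lost without any 1 of 12 further libraries: replicates A, C and E of egl-9, C and D of egl-9 hif-1, B, C and E of smg-1 egl-9 and A, B, C and E of smg-1 egl-9 hif-1 (adjusted p 0.05382 to 0.3374). In the smg-2 effect in egl-9 minus that in N2, 0 of the 8 were called by edgeR, DESeq2 or limma, where 3.64% of all genes were called by edgeR, and 1 had an unadjusted p under 0.05.

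The 2 smg mutants differed in few SR genes in the N2 and egl-9 states. In smg-2 relative to smg-1, rsp-2 alone was higher (0.26 ± 0.06, adjusted p = 0.00491), where 1.86% of genes were called higher, a call lost without replicate A of smg-1 or E of smg-2 (adjusted p = 0.08376 and 0.07109), without a filter, with only the compared libraries and on the TPM values (adjusted p = 0.0532, 0.1211 and 0.2242). In smg-2 egl-9 relative to smg-1 egl-9, 0 of the 8 were called by edgeR, where 2.19% of genes were called, 2 had an unadjusted p under 0.05, and limma on the TPM values called rsp-2 (0.33, adjusted p = 0.01926). In the smg-2 egl-9 hif-1 strain relative to smg-1 egl-9 hif-1, rsp-3, rsp-4, rsp-5 and rsp-6 were lower, with log2 values of -0.37 to -0.23, where 17.6% of genes were called lower, and the call of rsp-3 was lost without replicate C of smg-1 egl-9 hif-1 (adjusted p = 0.05043) or with only the compared libraries (adjusted p = 0.0724). That of rsp-6 was lost without a filter, with only the compared libraries and on the TPM values (adjusted p = 0.05163, 0.06805 and 0.0744). The length index of rsp-1 was higher there, by 0.04 ± 0.01 (limma, adjusted p = 0.0323, where 0.270% of genes were called longer).

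Markers of the germ line moved with several of these groups. In whole worms, fewer germ cells and less RNA per germ cell cannot be told apart. Of the 5 oocyte and germline markers (rme-2, oma-1, oma-2, glh-1, pgl-1), 4 were called lower in smg-1 against N2, 4 in smg-2 against N2, 4 in smg-1 egl-9, 1 in smg-2 egl-9, 5 in the smg-1 egl-9 hif-1 strain and 4 in the smg-2 egl-9 hif-1 strain. Their summed level lay at 1221 to 1689 CPM in smg-1 and 1265 to 1809 CPM in smg-2 worms, against 2109 to 2548 CPM in N2. It lay at 1745 to 2094 CPM in smg-1 egl-9 and 1900 to 2150 CPM in smg-2 egl-9, against 2357 to 2526 CPM in egl-9. With egl-9 hif-1 it lay at 1325 to 1609 CPM in the smg-1 egl-9 hif-1 strain and 1000 to 1378 CPM in the smg-2 egl-9 hif-1 strain, against 1833 to 2468 CPM in egl-9 hif-1. The order of these sums over the NMD-deficient strains was close to that of rsp-3, lowest in the smg-2 egl-9 hif-1 strain and highest in the egl-9 doubles. That order was not particular to rsp-3. Among the same strains rsp-4 and rsp-5 were also lowest in the smg-2 egl-9 hif-1 strain, at 80.9 and 103 CPM, and highest in the egl-9 doubles. The gene rsp-5 rose without NMD in some comparisons. Of the 5 sperm markers (msp genes), 4 were called higher in smg-1 egl-9 relative to egl-9, 2 lower in the smg-1 egl-9 hif-1 strain and 5 lower in the smg-2 egl-9 hif-1 strain relative to egl-9 hif-1. They summed to 411 to 514 CPM in smg-1 and 365 to 522 CPM in smg-2 worms, against 332 to 571 CPM in N2. The 5 soma markers summed to 3266 to 3832 CPM in smg-1 and 2594 to 3718 CPM in smg-2 worms, against 2677 to 3893 CPM in N2. Of the soma markers, 0 to 3 were called higher and 0 lower in each of the 6 comparisons. The part of the germ line in the SR changes was not tested.

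Other splicing genes gave the setting of the SR genes. Of 6 SR kinases and partners, rsr-1 (related to the coactivator SRm160) and swp-1 were higher in all 6 comparisons and rsr-2 (related to SRm300) was lower in all 6. The values of swp-1 lay between 0.90 and 1.46 and those of rsr-2 between -0.73 and -0.42. Of 15 tested splicing regulators outside the SR family, 7 to 8 were higher and 0 to 2 lower in each comparison. Those higher in all 6 were sup-12, exc-7, asd-2, hrpf-1, ptb-1, hrpa-1 and etr-1. The largest was sup-12, a muscle RNA-binding protein, at 2.17 to 2.64, and exc-7, the ELAV homologue, followed at 1.32 to 1.88. The median log2 value of this list lay between 0.17 and 0.30, beside -0.04 to 0.11 over all tested genes.

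Of 17 core spliceosome genes, 1 to 2 were higher and 3 to 13 lower in each comparison. The list's median ran from -0.44 in the smg-2 egl-9 hif-1 strain to -0.02 in smg-1 egl-9. The genes prp-19 and uaf-1, the large subunit of U2AF, were lower in all 6, and rnp-7, which encodes the U1 70K protein, was higher in all 6. The last list held 3 ribosomal protein genes known in C. elegans for isoforms that NMD removes. Both rpl-7A, at 0.69 to 1.09, and rpl-12, at 0.47 to 1.12, were higher in all 6, and the third gene of the list in 4.

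The members' means over the 9 genotypes were compared in pairs. The means of rsp-7 and rsp-8 had a Pearson r of 0.99, those of rsp-6 and rsp-8 0.96 and those of rsp-6 and rsp-7 0.95, while those of rsp-3 had 0.81 with rsp-4 and -0.84 with rsp-8. The means of rsp-5 had 0.77 with rsp-1, 0.53 with rsp-4, 0.47 with rsp-8 and 0.03 with rsp-3, and those of rsp-4 had -0.41 with rsp-8 and -0.10 with rsp-1. These are descriptions over 9 means that share libraries and scaling. Among 10532 genes whose mean reached 5 CPM, the means most like rsp-8 were those of rol-3 (r = 0.998), WBGene00014613 (0.997) and rnf-113 (0.997). Those most like rsp-6 were K10C2.7 (0.997), F14D2.14 (0.995) and fbxa-211 (0.995). Those most like rsp-7 were WBGene00018101 (0.995), W07E6.5 (0.995) and T09F5.12 (0.993). Those most like rsp-1 were hrpk-1, an hnRNP K homologue (0.974), rib-2 (0.971) and cmtr-2 (0.970). The log2 fold changes of these 12 genes in the 6 comparisons ran from 0.25 for hrpk-1 to 4.73 for fbxa-211. The 12 were picked by likeness, over the same means, to members higher in all 6 comparisons. Their direction therefore largely follows from the choice.

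Levels of different genes can be set side by side per length. In N2 the mean TPM was highest for rsp-3 (226), then rsp-6 (176), rsp-5 (168), rsp-4 (142), rsp-2 (138), rsp-1 (128), rsp-8 (80.5) and rsp-7 (73.9). In smg-1 worms rsp-6 stood first at 347 ± 28.2 TPM, against 176 ± 7.51 TPM in N2 (SD, n = 5 each), and rsp-3 stood at 159 ± 8.25 TPM, against 226 ± 18.05 TPM in N2. The TMM-scaled CPM of the 8 genes summed to 1348 ± 53.7 in smg-1 and 1479.5 ± 36.3 in smg-2 worms, against 1185 ± 74.5 in N2. The lowest sums, 1262 in smg-1 and 1435 in smg-2 worms, lay on either side of the highest in N2, 1298.5. In the smg-2 egl-9 hif-1 strain the sum was 1243 ± 58.95, against 1128 ± 62.0 in egl-9 hif-1, and the ranges overlapped (lowest 1180.2 in the smg-2 egl-9 hif-1 strain, highest 1192 in egl-9 hif-1).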

How the data were processed

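RNA of 45 libraries was measured by directional, polyA-selected RNA sequencing. The authors deposited estimated gene counts and log2(TPM + 1) values, where TPM is a depth- and length-scaled abundance. Per the submitters' processing notes, STAR 2.7.9a, RSEM 1.3.0, FastQC and DESeq2 were used with the build WBcel235. The annotation release and the strand setting of the counting are not given in the sources used here. The deposited counts are whole numbers.

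Counts were fitted by quasi-likelihood in edgeR 4.0.16 under R 4.3.3 and compared by its F test (TMM scaling, filterByExpr, 9 genotype means, 36 residual degrees of freedom), with Benjamini-Hochberg adjustment over the 16053 of 46926 genes kept. The untested genes held 0.0372% of the counts. A length index, log2 of count over TPM centred in each library on genes with 1 annotated transcript, was tested with limma 3.58.1. Its conversion to nucleotides, by a line over 4350 such genes, and the isoform shares were chosen after the index values were seen. Settings that were varied were DESeq2 1.42.0 size factors and Wald test, the filter, the replicate letter as a block, the samples fitted, the deposited log2 values, the centring, and each library left out. The code was tested on simulated data. Over 90 pairs of replicates the chi-square per degree of freedom was 4.895 to 88.52; no 2 libraries agreed within sampling noise.

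The members and gene lists were chosen with earlier results of these data known. All 8 members are named in every comparison, those with the same call in all 6 NMD comparisons library by library. Genes of the other lists are named where called in all 6 in 1 direction, and for each member higher in all 6 the 3 genes with the most similar genotype means. One of 16 listed splicing regulators was not found by name in the table. No sequences are shown.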

Additional observations from a re-analysis of the deposited data

Results flagged for a closer look

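Single libraries stood apart from the other 4 of their genotype by Dixon's test in 2 of 72 groups of CPM and 5 of 54 groups of assigned lengths. Chance gives about 1 in 20. The rsp-2 level in replicate A of smg-1 egl-9 was 158.97 CPM, the others lying at 181.94 to 185.87 CPM. At rsp-8, replicate C of smg-1 egl-9 hif-1 stood at 112.12 CPM, the others lying at 135.79 to 144.06 CPM. The assigned length of rsp-4 was 882.33 nt in replicate E of smg-1 (others 874.63 to 876.86), 874.98 nt in replicate B of smg-2 egl-9 (others 871.71 to 872.38) and 851.84 nt in replicate E of egl-9 hif-1 (others 853.99 to 854.66). The assigned length of rsp-5 was 830.33 nt in replicate E of smg-2 egl-9 (others 825.07 to 826.27). The assigned length of rsp-6 was 804.19 nt in replicate A of egl-9 hif-1 (others 801.31 to 801.85).

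A difference of the effect of NMD loss between HIF states was called in 7 tests of the difference itself (edgeR interaction terms). The smg-1 effect on rsp-5 in egl-9 minus that in N2 was 0.47. In egl-9 hif-1 minus egl-9, the smg-1 effect was -0.31 for rsp-1 and -0.43 for rsp-5. In egl-9 hif-1 minus egl-9, the smg-2 effect was -0.36 for rsp-1, -0.40 for rsp-3, -0.32 for rsp-4 and -0.68 for rsp-5. In the same directions 5.78%, 2.82% and 15.4% of all genes were called in these 3 interactions, in this order. Only the smg-2 call of rsp-5 held under every other setting, and each of the others was lost under at least 1.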

How the results depend on the processing

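Over the 6 NMD comparisons, 313 of 336 gene values kept their direction and their side of the threshold under the other settings, and 470 of 480 did so when 1 library was left out. For the length index these counts were 236 of 240 and 480 of 480. The 4 length calls lost were those of rsp-3. The cause of the changes below was not tested. The counts of SR genes under other settings stand below without the share of all genes called under the same setting. They therefore do not tell a change of the SR genes from one of all genes.

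SR genes lower in smg-1 against N2 numbered 1 with a mean filter of 5 CPM, with only the compared genotypes fitted and on deposited log2(TPM + 1) values. Those higher in smg-1 egl-9 relative to egl-9 numbered 3 on the TPM values, where rsp-2, rsp-7 and rsp-8 were lost. Those lower in smg-2 egl-9 relative to egl-9 numbered 2 with DESeq2 size factors, without a filter and in the DESeq2 Wald test. SR genes called in egl-9 hif-1 relative to egl-9 numbered 4 with size factors, 3 without a filter, 4 in the Wald test and 6 on the TPM values, where rsp-1 turned to -0.15. On the TPM values, 1 gene was called in egl-9 against N2, 2 in egl-9 hif-1 against N2, 4 in smg-2 egl-9 relative to smg-2, 0 in smg-2 relative to smg-1 and 1 in smg-2 egl-9 relative to smg-1 egl-9. With only the compared genotypes fitted, 0 were called in egl-9 hif-1 against N2, 3 in smg-1 egl-9 relative to smg-1, 2 in the smg-1 egl-9 hif-1 strain relative to smg-1 egl-9, 0 in smg-2 relative to smg-1 and 2 in the smg-2 egl-9 hif-1 strain relative to smg-1 egl-9 hif-1. Without a filter, 0 were called in smg-2 relative to smg-1, and with the filter of 5 CPM 1 in smg-2 egl-9 relative to smg-2. The smg-1 effect in egl-9 hif-1 minus egl-9 was called for 0 genes with size factors, without a filter or with only the compared genotypes, and for 1 with the filter of 5 CPM, in the Wald test and on the TPM values. The smg-2 effect there was called for 1 gene with size factors, without a filter, in the Wald test and on the TPM values.

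Leaving out 1 library, the counts of SR genes higher stayed at 4, 6, 6, 6 and 5 in 5 NMD comparisons and ran from 5 to 6 in the smg-1 egl-9 hif-1 strain relative to egl-9 hif-1. Those lower ran from 1 to 2 in smg-1 against N2 and from 2 to 3 in the smg-2 egl-9 hif-1 strain relative to egl-9 hif-1, and stayed at 1 in the other 4. Those longer stayed at 5. Counts called ran from 0 to 1 in egl-9 hif-1 against N2, egl-9 against N2, smg-2 egl-9 relative to smg-1 egl-9, smg-2 egl-9 relative to smg-2 and smg-2 relative to smg-1, from 1 to 2 in egl-9 hif-1 relative to egl-9, from 4 to 5 in the smg-1 egl-9 hif-1 strain relative to smg-1 egl-9, from 4 to 6 in smg-1 egl-9 relative to smg-1 and smg-2 egl-9 hif-1 relative to smg-2 egl-9, and from 3 to 4 in the smg-2 egl-9 hif-1 strain relative to smg-1 egl-9 hif-1. For the interactions they ran from 1 to 3 (smg-1, egl-9 minus N2), 0 to 2 (smg-1, egl-9 hif-1 minus egl-9) and 1 to 4 (smg-2, egl-9 hif-1 minus egl-9).

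The labels do not say whether libraries with the same replicate letter were handled together. The deviations of same-lettered libraries correlated at -0.47 to 0.56, and the correlations were over 0.1 for every letter in none of the 16 comparisons. They were above 0 for every letter in smg-2 against N2 (0.08 to 0.23) and in smg-2 egl-9 relative to egl-9 (0.06 to 0.24). With the letter as a replicate block, 1 SR gene (rsp-6) was called in smg-2 egl-9 relative to smg-2, 1 (rsp-7) in smg-2 egl-9 relative to smg-1 egl-9 and 2 (rsp-1 with rsp-5) in the smg-1 effect in egl-9 minus N2. The block also added rsp-6, called lower, in smg-1 egl-9 relative to smg-1 (adjusted p = 0.03017) and in the smg-2 egl-9 hif-1 strain relative to smg-2 egl-9 (adjusted p = 0.03432), and it changed no call in the NMD comparisons. The lowest count of a member in a library was 806, and no junction counts were used.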
